A study of Rattus norvegicus with 10 samples.

Results

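Oxidative phosphorylation is carried out by complexes I to V of the inner mitochondrial membrane, and the genes described here encode their nuclear subunits and close relatives. They were taken by symbol from the array annotation, as every probe set with a single gene symbol that starts with Ndufa, Ndufb, Ndufc, Ndufs, Ndufv, Uqcr, Cox4 to Cox8 or Atp5, or that is Sdha, Sdhb, Sdhc, Sdhd or Cyc1. This gave 97 probe sets of 87 genes, among 31042 probe sets tested and 14217 genes named by a single symbol. A further 7 probe sets carry several symbols and were left out. The prefix also takes in genes that are no subunits: 6 assembly factors of complex I, the supercomplex factor Cox7a2l, the ATPase inhibitor Atp5if1, the Ndufa4 relative Ndufa4l2 and the pseudogene Cox6c-ps1.

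Resident peritoneal macrophages of Hsdcpb:WU rats weighing 200 to 224 grams were either given 100 µg/ml of isolated myelin or left without it for 3 days (mye-macrophages and control macrophages). The cytokines IFNγ and IL-1β were then added to both groups at 100 ng/ml for 9 hours, so the controls are stimulated cells as well. Each group holds 5 samples on Affymetrix rat genome arrays, numbered 1 to 5, and a mye-macrophage and a control macrophage sample of the same number are called a pair. The cells were selected by adherence, the labels give neither age nor sex, and nothing says whether samples came from separate animals. P-values of the main fit, which is blocked by pair, therefore measure the spread of the differences within pairs, which may be technical. Without the block they measure the spread between these samples.

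Complexes I, III and IV pass electrons from NADH to oxygen by way of ubiquinone and cytochrome c and pump protons, complex II feeds in electrons from succinate, and complex V uses the proton gradient to make ATP. In macrophages, inflammatory stimulation is known to shift energy production from respiration towards glycolysis, while alternatively activated macrophages rely more on respiration. Complex I is built from an NADH-binding N module, a ubiquinone-reducing Q module and a membrane arm with a proximal and a distal part.

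Most of these genes had slightly more signal in mye-macrophages than in control macrophages, but none passed the test. In the limma fit with the pair as a block, 0 of the 97 probe sets reached an adjusted p under 0.05, against 0.412% of all probe sets. At an unadjusted p under 0.05, 14 of the 97 were higher in mye-macrophages, against 5.51% of all probe sets, and 1 was lower, against 6.62%. Of the 97, 71 had a log2 fold change above 0 (73.2%, against 51.6% of all probe sets), and 24 were higher in 5 of 5 pairs (24.7%, against 6.16%). Only 3 probe sets, those of Ndufa4, Cox6c and Atp5pb, were lower in 5 of 5 pairs, against 6.59% of all probe sets. Probe sets of this kind are not independent of each other, so these shares are a description.

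With 1 probe set per gene, the brightest, 67 of the 87 genes lay above 0 and the median log2 fold change was 0.09. The same median was 0.01 over all named genes and -0.01 over the 9117 named genes whose probe set lies above the median signal of the arrays, of which 47.0% were above 0. Of the 87 genes, 80 lie above that median signal, and 61 of these 80 had a log2 fold change above 0. The differences are small. For 86 of the 87 genes the 95% interval lay within 1.5-fold (0.58 on the log2 scale) in both directions, and for 68 of them within 1.25-fold. The interval excluded 0 upwards in 13 genes and downwards in Ndufa4. The count at an unadjusted p under 0.05, 15 in both directions, varied with the fit. It was 4 without replicate 1, 4 without replicate 4, 9 without replicate 2, 9 without replicate 5 and 16 without replicate 3. Each of these fits has fewer samples. The count was 11 after median centring, 14 with array weights, 17 after quantile normalization and 25 with a trended, robust variance prior. With the 3 prime against 5 prime gap of actin as a covariate, described further on, it was 1. Without the block it was 0, and it was 2 by the methods' t-test, with 0 called after adjustment in both. The share of all probe sets was not worked out for these fits, so whether the members alone changed cannot be told.

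The complexes differed in how many of their genes lay above 0, and no test between complexes was run. Complex I had 31 of 34 subunits above 0 with a median of 0.11. Of the 34, 15 were higher in 5 of 5 pairs, against 7.76% of all named genes. Complex V had 13 of 16 genes above 0 (median 0.07), complex IV 14 of 19 (median 0.09) and complex III 5 of 8 (median 0.05). Complex II had 1 of 4 genes above 0 and a median of -0.01. The 6 assembly factors of complex I, which carry the Nduf prefix but leave the finished enzyme, were split, 3 above and 3 below 0.

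**Figure D1:**
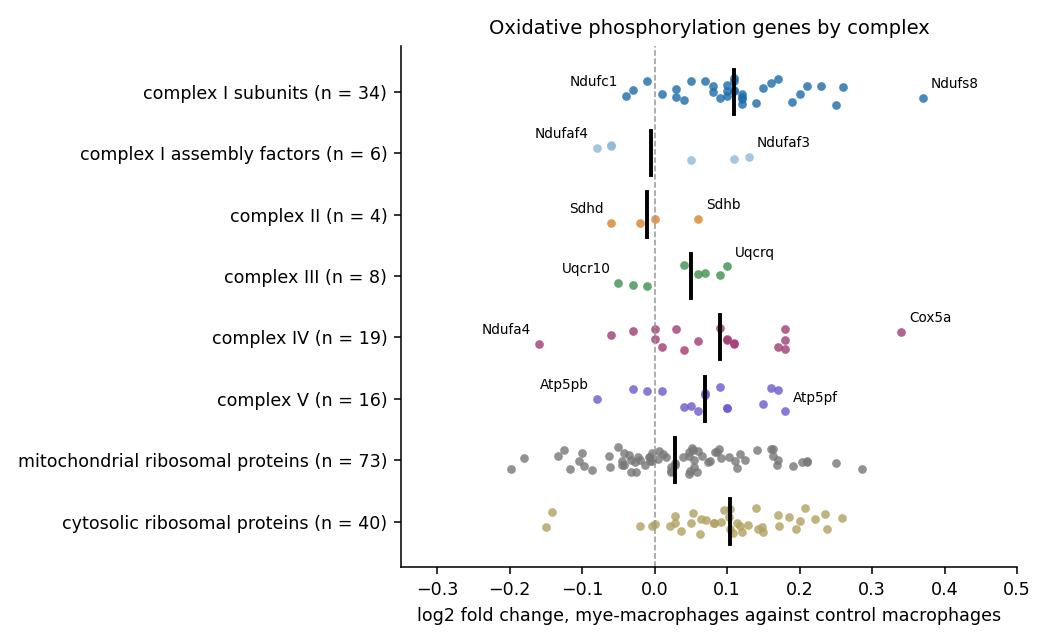
Each point is 1 gene, placed by the log2 fold change of mye-macrophages against control macrophages in the blocked limma fit (brightest probe set), with genes grouped by complex, and the vertical bars are medians. Complex I subunits lie mostly right of 0 (31 of 34), as do the cytosolic ribosomal proteins (36 of 40), and complex II and the assembly factors lie around 0.

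The promoters show what the genes share in sequence near their start. Windows from 250 bases before to 50 after the start were found for 78 of the 87 genes in RefSeq (GRCr8) and searched on both strands. CCGGAAG, the core bound by ETS factors such as GABP, was in 22 of the 78 (28.2%, against 9.22% of all 27457 windows), and AAGATGG, the core of YY1 sites, in 20 (25.6%, against 7.3%). AAGGTCA, bound by estrogen-related receptors, was in 11 (14.1%, against 4.37%), and the exact NRF1 palindrome in 3 (3.85%, against 1.36%). Of the general elements, GGGCGG (SP1) was in 34 (43.6%, against 34.9% of all windows and 43.1% of the 18999 windows of coding genes), CCAAT in 27 (34.6%, against 37.7%) and TATAAA in 8 (10.3%, against 14.3%). Over the windows of coding genes the ETS core was in 11.2%, the YY1 core in 7.58% and AAGGTCA in 3.71%. Both the ETS and the YY1 core were in 7 genes, with 0 overlapping matches, and 43 genes had neither.

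In complex I the ETS core was in 7 of 32 windows, beside 15 of the other 46. The 120 bases before the start are printed for the highest and the lowest gene, for Ndufb6 as the highest of the distal arm and for Sdhb as a gene of complex II, with matches to the cores in capitals. All run 5′ to 3′ on the strand of the gene, in GRCr8: Ndufs8 at chr1:210573699-210573818 (minus), Ndufb6 at chr5:60206153-60206272 (minus), Ndufa4 at chr4:40975560-40975679 (minus) and Sdhb at chr5:158547814-158547933 (plus).
Ndufs8: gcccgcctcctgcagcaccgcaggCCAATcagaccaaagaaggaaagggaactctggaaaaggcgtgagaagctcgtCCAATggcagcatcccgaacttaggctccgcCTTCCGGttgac
Ndufb6: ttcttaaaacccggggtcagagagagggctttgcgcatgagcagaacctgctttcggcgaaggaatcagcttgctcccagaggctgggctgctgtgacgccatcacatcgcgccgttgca
Ndufa4: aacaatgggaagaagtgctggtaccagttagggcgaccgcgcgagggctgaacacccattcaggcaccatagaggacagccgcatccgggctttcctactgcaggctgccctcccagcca
Sdhb: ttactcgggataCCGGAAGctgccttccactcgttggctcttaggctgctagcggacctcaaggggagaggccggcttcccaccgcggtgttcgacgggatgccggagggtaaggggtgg
Ndufs8 holds the ETS core on the opposite strand, starting 12 bases before the start, and CCAAT 43 and 96 bases before it. Sdhb holds the ETS core 108 bases before its start. Ndufb6 and Ndufa4, with log2 fold changes of opposite sign, have none of these cores in the window searched. A match is a string of letters in a window and was not tested as a binding site.

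Ndufs8, an iron-sulfur subunit of the Q module that hands electrons towards ubiquinone, had the highest log2 fold change of all 87 genes. Its log2 signal in control macrophages 1 to 5 was 6.27, 5.81, 6.38, 6.78 and 6.21. In mye-macrophages 1 to 5 it was 6.88, 6.14, 6.69, 7.11 and 6.47. Every mye-macrophage sample was above the control of its own number, while the groups overlapped because the pairs differ in level, pair 2 being the lowest and pair 4 the highest in both groups. The differences within pairs were 0.62, 0.33, 0.31, 0.33 and 0.26. The log2 fold change was 0.37 (1.29-fold, SE 0.07, 95% interval 0.20 to 0.54, n = 5 pairs) with an adjusted p of 0.0765 by limma, so Ndufs8 did not pass. It passed in limma when p-values were adjusted over the 50% of probe sets that varied most (adjusted p = 0.0383), among 2.69% of probe sets called there, and Ndufs8 was the 1 of the 41 OXPHOS probe sets kept by that filter to do so. Without replicate 1, 2, 4 or 5 it no longer passed under that filter (adjusted p 0.0957 to 0.107 in limma), and without replicate 3 it did (adjusted p = 0.044).

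The distal part of the membrane arm, which pumps protons and is surrounded by the Ndufb subunits, had all 11 of its genes above 0 with a median of 0.12. Of these, 7 were higher in 5 of 5 pairs, against 7.76% of all named genes, and 5 were higher at an unadjusted p under 0.05, against 6.44%. This grouping by module, and the names Ndufb1, Ndufb2, Ndufb4, Ndufb7, Ndufs7, Ndufv2 and Ndufc2, were chosen after the values were seen. Ndufb6, an accessory subunit, gave 8.37, 8.07, 8.24, 8.67 and 8.24 in control macrophages 1 to 5 and 9.02, 8.18, 8.42, 8.86 and 8.42 in mye-macrophages 1 to 5. It was higher in 5 of 5 pairs, most in pair 1 (0.65), with overlapping groups and a log2 fold change of 0.26 (SE 0.09, adjusted p = 0.276, limma). Without replicate 1 this value was 0.17.

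Ndufb2, another accessory subunit of the distal arm, gave 8.52, 8.22, 8.38, 8.72 and 8.37 in the controls and 8.95, 8.43, 8.49, 8.88 and 8.62 in mye-macrophages 1 to 5. Its log2 fold change was 0.23 (SE 0.07, adjusted p = 0.237, limma), with the smallest within-pair difference in pair 3 (0.11). Ndufb4 had a log2 fold change of 0.25 (SE 0.10, adjusted p = 0.362, limma), of which pair 1 gave 0.72 and pairs 2, 3 and 5 at most 0.11. Ndufb1 (0.21) and Ndufb7 (0.19) were also higher in 5 of 5 pairs. The lowest of the Ndufb genes was Ndufb5 with 0.08, so the distal arm subunits differed among themselves mainly in size and not in sign.

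**Figure D2:**
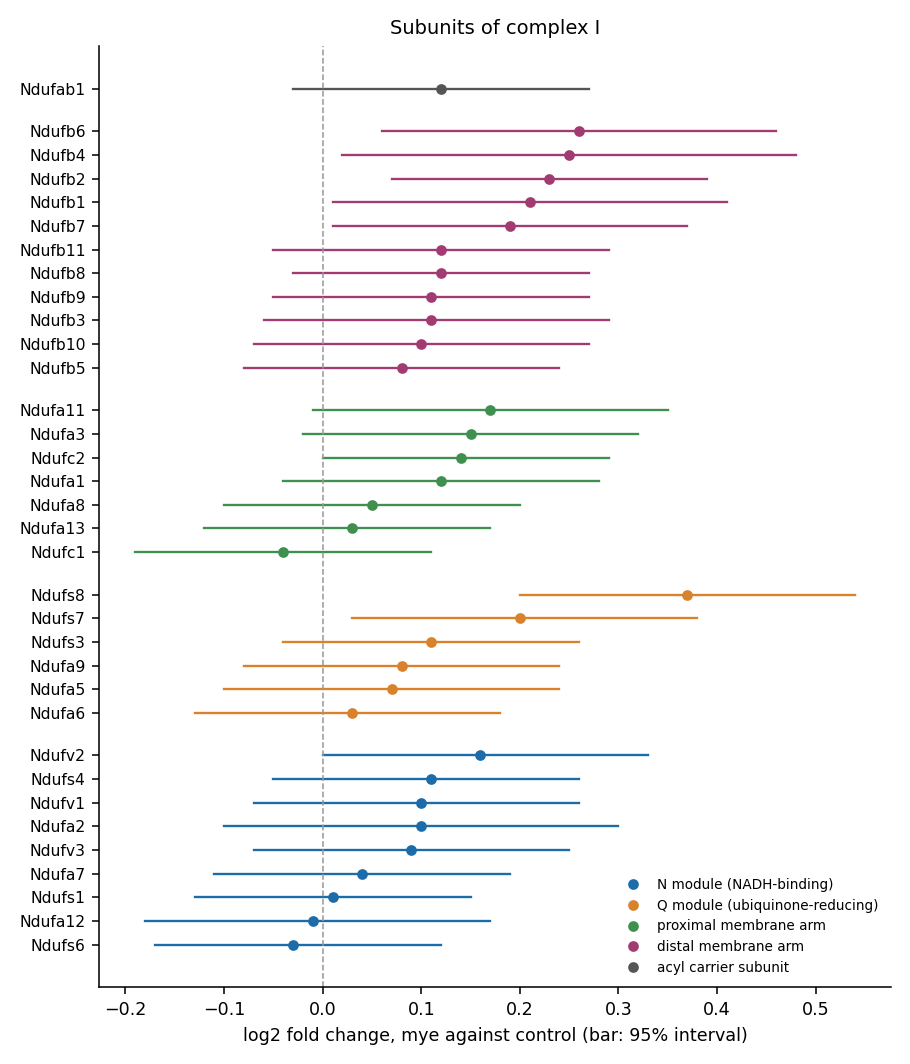
Log2 fold change (point) and 95% interval (bar) of the 34 complex I subunits from the blocked limma fit, mye-macrophages against control macrophages, grouped by module. All 11 distal arm genes lie right of 0 and Ndufs8 lies farthest out at 0.37, while Ndufc1, Ndufs6 and Ndufa12 lie left of 0.

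In the other modules the values were more mixed. All 6 Q module genes were above 0 (median 0.09), among them Ndufs7, which carries the last iron-sulfur cluster before ubiquinone, with 0.20 (SE 0.08) and 5 of 5 pairs. The N module had 7 of 9 genes above 0 (median 0.09), led by the iron-sulfur subunit Ndufv2 with 0.16, which was higher in 4 of 5 pairs. Ndufs1, the largest subunit of complex I, had 0.01 with a 95% interval of -0.13 to 0.15. The proximal arm had 6 of 7 genes above 0 (median 0.12), with Ndufc2 at 0.14 and 5 of 5 pairs. The exceptions over the whole of complex I were Ndufc1 (-0.04), Ndufs6 (-0.03) and Ndufa12 (-0.01). Among the assembly factors, Ndufaf3 (0.13) and Ndufaf7 (0.11) stood highest and Ndufaf4 (-0.08) and Ndufaf8 (-0.06) lowest.

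Complex II, which is also the succinate dehydrogenase of the citric acid cycle, showed no common direction. Sdha, the flavoprotein, had -0.02 (95% interval -0.18 to 0.14), and Sdhb, the iron-sulfur subunit, had 0.06 (-0.09 to 0.22). The membrane anchors Sdhc and Sdhd had -0.00 (-0.15 to 0.15) and -0.06 (-0.20 to 0.09). Sdhc gave 9.57, 9.65, 9.40, 9.34 and 9.56 in control macrophages and 9.48, 9.63, 9.53, 9.35 and 9.53 in mye-macrophages 1 to 5, so the groups lay on top of each other. The upper bounds of Sdha, Sdhb and Sdhc lie above the complex I median of 0.11 and that of Sdhd lies below it, and the difference between complexes I and II was not tested.

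In complex III, Cyc1, the cytochrome c1 that passes electrons to cytochrome c, had 0.06 (SE 0.06) and was higher in 4 of 5 pairs. Uqcrq (0.10) and Uqcrh (0.09) had the highest values and Uqcr10 (-0.05) and Uqcrc2 (-0.03) the lowest. A second, dimmer probe set of Uqcrc2, a core protein, had -0.11.

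Complex IV, cytochrome c oxidase, held both extremes outside complex I. Cox5a, a subunit of its matrix side, gave 4.77, 4.56, 4.74, 5.02 and 5.02 in control macrophages and 5.88, 4.93, 4.83, 5.28 and 4.88 in mye-macrophages 1 to 5. The first mye-macrophage sample stood alone at 5.88, and pair 5 went the other way (-0.14). The log2 fold change of 0.34 (SE 0.15, adjusted p = 0.409, limma) was 0.15 without replicate 1, and Cox5a was the 1 gene whose 95% interval reached past 1.5-fold (0.00 to 0.68). Cox7b had 0.18 and Cox4i1, the ubiquitous form of subunit 4, 0.11, both higher in 4 of 5 pairs.

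Ndufa4, whose promoter is printed with that of Ndufs8, was once counted with complex I and is now placed in cytochrome c oxidase, and it was the lowest of the 87 genes. It gave 9.37, 9.35, 9.45, 9.21 and 9.56 in control macrophages and 9.19, 9.08, 9.28, 9.10 and 9.49 in mye-macrophages 1 to 5. Each mye-macrophage sample was below the control of its number, the groups overlapped, and the log2 fold change was -0.16 (SE 0.07, 95% interval -0.31 to -0.01, adjusted p = 0.373, limma). Its relative Ndufa4l2, a gene known for induction by hypoxia, had 0.18 and 5 of 5 pairs higher, but at a signal of 1.84 to 2.35, around or below the array median of 2.32. Cox6c (-0.06) and Cox6a1 (-0.03) were on the low side among the general subunits, and Cox8a had 0.03 and Cox6b1 0.10.

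The tissue-restricted forms of complex IV subunits lay near the floor of the arrays. Cox4i2 (lung), Cox6a2 and Cox8b (heart and skeletal muscle) and Cox6b2 (testis) had mean signals of 1.46, 1.16, 1.71 and 0.78 in control macrophages and log2 fold changes of -0.00, 0.01, 0.10 and 0.09. Cox7a1, the muscle form of subunit 7a, was just above the median signal at 2.71 and had 0.04. Cox7a2l, which links complexes III and IV into supercomplexes, had -0.00 (95% interval -0.15 to 0.14).

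**Figure D3:**
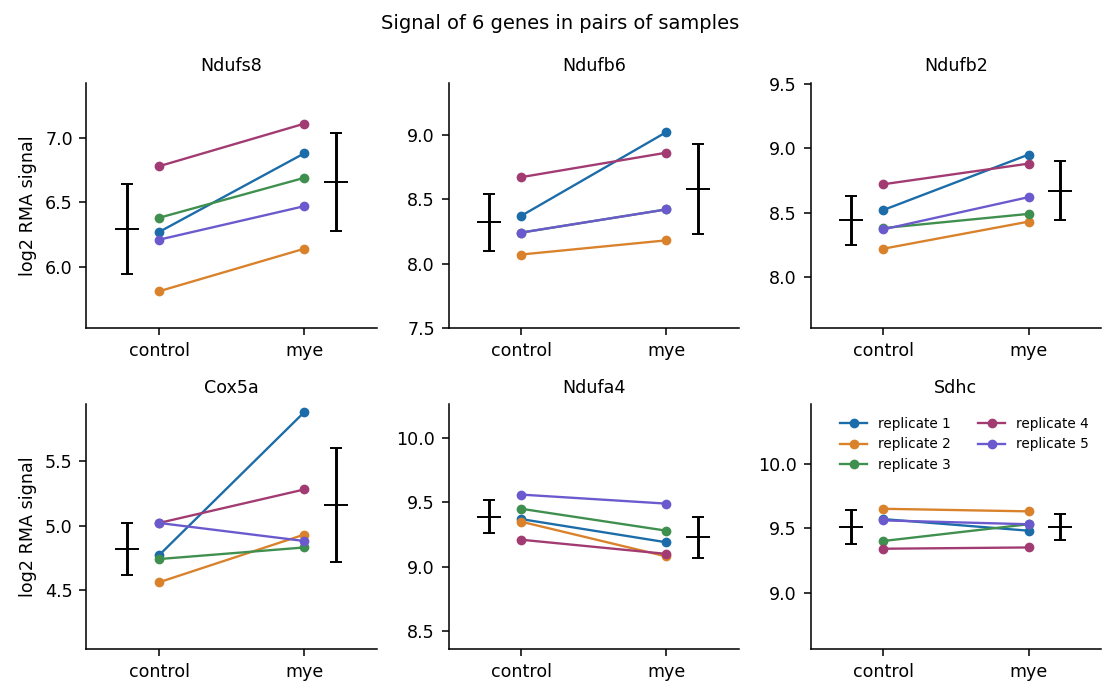
Log2 RMA signal (vertical axis) of 6 genes in control macrophages and mye-macrophages, with lines joining samples of the same replicate number and crosses giving the mean and SD of 5 samples beside each group. Ndufs8, Ndufb6 and Ndufb2 go up and Ndufa4 goes down in 5 of 5 pairs, Cox5a is set apart by replicate 1, and Sdhc shows no common direction; for Ndufb6 replicates 3 and 5 coincide.

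In complex V, the 5 genes of the catalytic F1 head were all above 0, with a median of 0.06. The membrane part and stalk had 7 of 10 above 0 and a median of 0.10. Atp5mc3, which encodes the c subunit of the rotating ring, gave 10.10, 9.78, 10.01, 10.16 and 9.91 in control macrophages and 10.37, 9.91, 10.11, 10.34 and 10.04 in mye-macrophages 1 to 5. It was higher in 5 of 5 pairs by 0.10 to 0.27, with overlapping groups and a log2 fold change of 0.16 (SE 0.07, adjusted p = 0.365, limma). The stalk subunit Atp5pf had 0.18, Atp5me 0.17 and Atp5po, the oligomycin sensitivity subunit, 0.15. Atp5pb, the b subunit of the same stalk, had -0.08 and was lower in 5 of 5 pairs, although by less than 0.01 in pair 3, and Atp5mk had -0.03. Atp5if1, which blocks ATP breakdown by the enzyme, had 0.01 on its brightest probe set.

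Of the 87 genes, 9 have more than 1 probe set. The widest spread was in Atp5po, where a dim probe set had -0.17 against 0.15 on the bright one. Ndufa7 had 0.04 on its bright and -0.22 on its dim probe set, Ndufaf7 0.11 and -0.09, and Ndufa9 0.08 and -0.03. The dim probe sets of Atp5if1 had 0.16 and 0.20. No probe set of these genes passed the test, and in all 4 genes with opposite signs the brighter probe set was the higher one.

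The higher signal was not spread evenly over the pairs. The median difference over the 87 genes was 0.19 in pair 1, 0.04 in pair 2, 0.01 in pair 3, 0.10 in pair 4 and 0.02 in pair 5, and the number of genes above 0 was 75, 54, 50, 73 and 50. For complex I the medians were 0.29, 0.05, 0.04, 0.15 and 0.06, and for the distal arm 0.37, 0.07, 0.07, 0.15 and 0.08. Pairs 1 and 4 thus carry most of the difference, but each pair's median was above 0 for these lists. Over all named genes the pair medians lay between -0.01 and 0.01. Without replicate 1 the median over the 87 genes was 0.05 with 68 genes above 0, and complex I had 30 of 34 above 0 with a median of 0.07.

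As a level per sample, the median deviation of the 87 genes from their means over all 10 arrays ran from -0.12 to 0.02 in control macrophages and from -0.08 to 0.18 in mye-macrophages, so the groups overlapped. Complex I was high in replicate 4 of both groups (0.08 and 0.24) and in mye-macrophage replicate 1 (0.23), and low in replicate 2 of both groups (-0.19 and -0.12). Complex II ran differently over the samples: replicate 2 was its highest in both groups (0.16 and 0.14) and replicate 4 its lowest (-0.14 and -0.15).

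**Figure D4:**
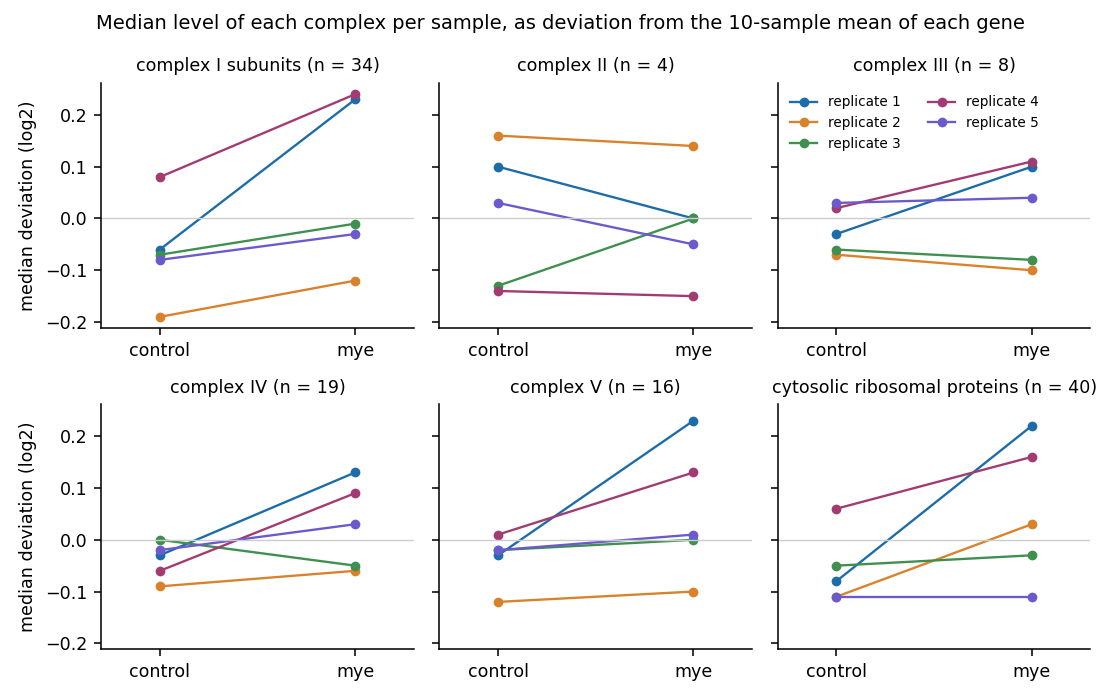
Median over the genes of a complex of each sample's deviation from the gene's 10-sample mean (log2, vertical axis), in control macrophages and mye-macrophages, with lines joining samples of the same replicate number. Complex I goes up from control to mye in each of the 5 pairs, most in replicate 1 (-0.06 to 0.23), cytosolic ribosomal proteins are up in replicates 1 to 4 and level in replicate 5, and complex II has no common direction.

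Other measures also moved with the pairs. The 3 prime against 5 prime gap of the actin control probe sets, which reflects how intact the labelled RNA is, was wider in mye-macrophages by 0.82 in pair 1, 0.45 in pair 2 and 0.30 in pair 5, equal in pair 4 (0.00) and narrower in pair 3 (-0.21). With that gap as a covariate beside the block, the median of the 87 genes was 0.04 with 66 genes above 0, and the probe sets at an unadjusted p under 0.05 went from 15 to 1. The covariate is an added term estimated from the same samples, which can raise p-values, and the median log2 fold change fell as well, from 0.09. In that fit Ndufs8 had 0.30, Ndufb6 0.16 and Cox5a 0.10, beside 0.37, 0.26 and 0.34 in the main fit. The part of RNA quality in the result was not tested further. The median of the 87 genes stayed 0.09 after median centring or quantile normalization of the arrays.

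Macrophage markers were present, with 9 of 10 above the median signal, as were 4 of 4 genes of the IFNγ and IL-1β response. Summed up as the mean log2 signal of the list, the macrophage markers ran from 6.65 to 7.75 in control macrophages and 6.73 to 8.06 in mye-macrophages. None was called in the main fit. Mrc1 came nearest, with 0.71 and 5 of 5 pairs higher (adjusted p = 0.053, limma), at a mean signal of 2.29 in control macrophages. Under the variance filter Mrc1 passed (adjusted p = 0.0265, limma), among 2.69% of probe sets called there. Its differences in pairs 1 to 5 were 1.11, 0.28, 0.77, 1.01 and 0.37, and its part in the result was not tested. Csf1r had -0.14 and Adgre1 -0.08. Of 8 markers of T, B and NK cells 2 were above the median signal (list means of 1.55 to 1.84 and 1.45 to 1.91), of 6 of mesothelial cells and fibroblasts also 2 (1.58 to 2.27 and 1.52 to 2.33), and of 5 of mast cells and granulocytes also 2 (1.82 to 3.99 and 1.88 to 3.90). The mast cell genes Cpa3 and Fcer1a were highest in replicate 4 of both groups (7.92 and 7.99 for Cpa3), where complex I was high too. So were genes of other lists, among them Dcn (6.22 and 6.29), Itgam (8.74 and 8.88), Mrc1 (4.41 and 5.42) and Cd14 (11.72 and 11.61). Lyz2 was lowest there (12.04 and 11.93), and Kit (1.76) and S100a9 (1.04) were not highest in mye-macrophage replicate 4. Within pairs 1 to 5, Cpa3 differed by 1.61, -0.36, -0.15, 0.08 and -0.54 and Fcer1a by 1.82, 0.28, 0.55, 0.08 and -0.94, so both differed most upwards in pair 1 and were below 0 in pair 5. In pair 1, Mcpt1 differed by 0.48, S100a9 by 0.22 and Kit by -0.06, and none of these 5 mast cell and granulocyte genes passed the test. Their part in the result was not tested, and in whole-culture RNA more cells of a type and more RNA per cell cannot be told apart. Of 7 myelin genes, Mobp was called higher in mye-macrophages (3.60, adjusted p = 0.00386, limma). The other 6 did not pass, with -0.20 for Mbp, -0.14 for Mal, 0.01 for Cldn11, 0.08 for Cnp, 0.12 for Mag and 0.13 for Mog. Each value is that of the brightest probe set of the gene. The paper lists Mbp, on a probe set not shown here, as its most upregulated gene, so -0.20 does not stand for every Mbp probe set.

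In the lists next to the subunits in the pathway the share of genes above 0 varied, no gene was called, and no difference from complex I was tested. Assembly factors of the complexes other than the Nduf genes had 18 of 39 above 0 with a median of -0.01, and the lowest p was that of Ttc19, a complex III factor, with -0.36 (adjusted p = 0.169, limma). Mobile carriers and electron entry genes had 9 of 18 above 0 (median -0.02), with Etfa, part of the electron transfer flavoprotein of fatty acid oxidation, at 0.21 (adjusted p = 0.263, limma). The regulators of mitochondrial biogenesis and mitochondrial DNA had 6 of 16 above 0 with a median of -0.09. Of the 16, 5 were lower in 5 of 5 pairs, against 1097 of the 14217 named genes. The mitochondrial DNA helicase Twnk had the lowest p, with -0.21 (adjusted p = 0.252, limma). Carriers of ATP and phosphate and uncoupling proteins had 6 of 8 above 0 (median 0.05), with Ucp2 at 0.20 (adjusted p = 0.437, limma). Of the 13 subunits encoded in mitochondrial DNA the array annotation names 2, COX1 with 0.04 and COX2 with 0.00.

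Ribosomal protein genes, taken by symbol, gave a comparison with other large sets of genes. The 40 cytosolic ribosomal protein genes had 36 above 0 and a median of 0.10, with 15 higher in 5 of 5 pairs. Complex I had 31 of 34, 0.11 and 15, and 7.76% of all named genes were higher in 5 of 5 pairs. The 40 include Rpl3l (-0.141), Rps4y2 (-0.02) and Rps27l (0.171), and 4 of the 40 are not above the median signal. The pair medians of the 40 genes were 0.26, 0.12, 0.04, 0.09 and 0.01, also highest in pair 1. The 73 mitochondrial ribosomal protein genes had 44 above 0 and a median of 0.03. None of either list passed the test (lowest adjusted p 0.229 for Rpl34 and 0.137 for Mrpl48, limma).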

How the data were processed

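RNA of 5 control macrophage and 5 mye-macrophage samples was hybridized to 1 array each. The values are on the log2 scale, as the authors deposited them after RMA with the affy package (background correction, normalization between arrays, summary per probe set). Their median, 2.32, is low for RMA, and why is not known.

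From these values, 57 control probe sets of 31099 were left out. The other 31042 were fitted with limma 3.58.1 in R 4.3.3 (lmFit, eBayes) blocked by replicate number, and Benjamini-Hochberg adjustment ran over all of them (threshold 0.05). The test was run on simulated data in which the noise of each probe set was independent. That check does not cover genes that vary together. The study's methods name an unpaired test on the 50% of probe sets that varied most. Both were run as alternatives, the t-test over all probe sets, as were other scalings, weights, filters, a covariate and each pair left out. The numbers come from the labels, which do not say what they stand for. Deviations from the group means correlated at 0.404 to 0.791 between samples of the same number and at most at 0.279 across numbers.

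Genes were named from GEO's platform annotation, and the brightest probe set stands for a gene. Named genes were the highest and lowest 2 of each complex, complex II, Cyc1, isoform sets, the genes whose probe sets differ most and the lowest p of each pathway list. Ndufb1, Ndufb2, Ndufb4, Ndufb5, Ndufb7, Ndufs1, Ndufs7, Ndufv2, Ndufc2, Ndufa12, the marker genes, Rpl34 and Mrpl48 lie outside that rule. Members and lists were chosen with earlier results of these data known. The number of arrays limits the precision.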

Additional observations from a re-analysis of the deposited data

Results flagged for a closer look

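In 3 of 82 groups of values tested (the control and mye-macrophage samples of each named gene), 1 sample stood apart from the other 4 of its group, and chance alone gives about 1 in 20. Atp5if1, the ATPase inhibitor, was 9.49 in control macrophage replicate 3 and 9.75 to 9.79 in the other controls. Cox7a1, the muscle form of a complex IV subunit, was 3.27 in mye-macrophage replicate 2 and 2.51 to 2.73 in the others. Uqcrc2, a core protein of complex III, was 7.56 in mye-macrophage replicate 2 and 7.86 to 7.97 in the others. Each group was screened without regard to the pairs. Among the controls, replicate 2 was also the highest for Cox7a1 (3.08) and the lowest for Uqcrc2 (7.66). None of these 3 genes passed the test between the groups, and the causes were not tested.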

How the results depend on the processing

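The count of probe sets called was 0 in the blocked fit and 0 with no replicate block, over all probe sets. Under the variance filter the block decided the call of Ndufs8, with 1 called (Ndufs8) in the blocked fit and 0 with no replicate block. The count was also 1 (Ndufs8) after leaving out probe sets below the median signal, which like the variance filter adjusts over fewer probe sets. It was 2 (Ndufs8 and Ndufb2) with a trended, robust variance prior. The share of all probe sets called was not worked out for the signal filter or the trended prior. These counts therefore cannot be set against the rest of the array. Over all probe sets the count of members called was 0 in every fit without 1 pair or 1 sample. The median over the genes was above 0 in all of these fits, from 0.04 with the actin gap as a covariate to 0.11 without mye-macrophage replicate 2 in the fit with no block, and from 0.05 to 0.10 without 1 pair.

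Of the 41 named genes 31 never changed sign. With the actin gap Cox6b2 had -0.02, Sdha 0.06, Sdhc 0.05 and Uqcrc2 0.01, and with quantile normalization Cox6a2 had -0.01. Without 1 pair, Atp5if1 ranged from -0.02 to 0.05, Atp5mk from -0.07 to 0.01, Cox4i2 from -0.07 to 0.04, Cox7a1 from -0.01 to 0.08, Cox7a2l from -0.02 to 0.02, Sdha from -0.06 to 0.02 and Sdhc from -0.03 to 0.02. All of these lie within 0.10 of 0, and the cause was not tested. Array intensities near the floor limit the tissue-restricted forms, and 5 arrays a group limit the rest.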
